A study of Homo sapiens with 6 samples.

Results

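The 7 human genes of the 14-3-3 family were SFN, YWHAB, YWHAE, YWHAG, YWHAH, YWHAQ and YWHAZ. They were taken by symbol from a table of 17047 genes measured by bulk RNA sequencing of HCT116 cells, an established human colorectal carcinoma line, and all 7 were found. Each cell population carried 1 of 2 shRNAs, delivered by a viral vector. In the PLEK2_shRNA group (sh1 to sh3, here PLEK2 shRNA replicates 1 to 3) it was directed against PLEK2, pleckstrin-2. In the shNC group (C1 to C3, here shNC replicates 1 to 3) it was a non-targeting shRNA. No drug, time course or second knockdown sequence was part of the comparison, so the loss of PLEK2 and other effects of this shRNA cannot be told apart. The labels do not say that replicates were separate cultures, so p-values measure the spread between these libraries, which may be technical.

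The family was chosen with its values known: SFN was lower with PLEK2 shRNA in each same-numbered pair of libraries, and this change, in the contrast of PLEK2 shRNA with shNC, was what drew attention to it. The changes of the 7 genes in that contrast are therefore given as a description, without a test. The measures tested here are the differences between replicate numbers, which the choice did not use, and the changes of genes outside the family.

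The 14-3-3 proteins are small adaptors that work as dimers. Each dimer binds serine or threonine residues that a kinase has phosphorylated on a partner protein, and it can hold the partner in the cytoplasm, mask a site on it or keep it from breakdown. Partners include the CDC25 phosphatases, BAD, FOXO factors, RAF kinases and YAP1. SFN encodes 14-3-3 sigma, or stratifin, which differs from the others in favouring dimers with itself, in being found mostly in epithelial cells and in being a direct transcriptional target of p53. It is best known, from work in colorectal cancer cells, for keeping CDK1 and cyclin B1 out of the nucleus after DNA damage. YWHAB, YWHAE, YWHAG, YWHAH, YWHAQ and YWHAZ encode the beta, epsilon, gamma, eta, theta and zeta proteins, which are made in most tissues.

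SFN is built unlike the rest of the family. In the GENCODE 44 annotation of GRCh38 its main transcript is a single exon on chromosome 1 (26863149 to 26864456, plus strand) that encodes 248 amino acids. YWHAH (chromosome 22, 31944535 to 31957603, plus strand) and YWHAG (chromosome 7, 76326799 to 76358991, minus strand) have 2 exons each. YWHAB (chromosome 20, 44885705 to 44908532, plus strand), YWHAE (chromosome 17, 1344275 to 1400222, minus strand) and YWHAQ (chromosome 2, 9583967 to 9630997, minus strand) have 6 exons each. The 250 bases upstream of the transcript start are shown for SFN and YWHAH, the genes whose PLEK2 shRNA libraries all lay below the shNC libraries. They come from RefSeq on GRCh38.p14 (SFN, chr1:26862899-26863148; YWHAH, chr22:31944285-31944534, both plus strand). Capitals mark matches to the motifs searched, on either strand.
SFN: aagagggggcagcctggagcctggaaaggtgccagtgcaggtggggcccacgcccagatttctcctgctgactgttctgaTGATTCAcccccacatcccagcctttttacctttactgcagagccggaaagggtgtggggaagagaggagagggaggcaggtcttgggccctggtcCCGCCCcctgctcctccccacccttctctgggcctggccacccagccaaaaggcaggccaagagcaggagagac
YWHAH: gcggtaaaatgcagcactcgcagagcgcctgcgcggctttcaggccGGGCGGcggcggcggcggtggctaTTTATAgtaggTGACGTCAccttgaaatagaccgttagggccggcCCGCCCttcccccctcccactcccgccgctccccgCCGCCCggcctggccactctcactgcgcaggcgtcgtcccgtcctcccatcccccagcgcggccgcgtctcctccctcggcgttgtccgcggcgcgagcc

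Of the 7 genes, 6 had an upstream sequence in the RefSeq table, and YWHAZ did not. SFN stood apart among the 6 in base composition, with 62.8% G or C and 3 CpG dinucleotides in 250 bases. The other 5 had between 70.4% and 72% G or C and between 21 and 34 CpG dinucleotides. Among the upstream sequences of 10191 genes tested for expression, the medians were 65.2% and 21, and 3.83% held fewer CpG dinucleotides than SFN.

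The SFN sequence held 1 GC box (GGGCGG, here as its reverse complement CCGCCC, positions -74 to -69 from the start). It also held 1 AP-1 site (TGANTCA, here TGATTCA, positions -170 to -164). Of the 10191 sequences, 68.2% held a GC box and 3.81% an AP-1 site. The YWHAH sequence held 3 GC boxes and 34 CpG dinucleotides. It also held 1 cAMP response element (TGACGTCA, positions -169 to -162), a motif found in 2.81% of the 10191, and 1 TATA box (TATAAA, here as its reverse complement TTTATA), found in 5.1%. A CCAAT box (CCAAT), held by 35% of the 10191, was found 3 times for YWHAQ and 1 time for YWHAB. None of the 6 held an E-box (CACGTG, 8.95% of the 10191) or a p53 half-site (4.58%). Motifs were sought on both strands, and the marked matches did not overlap each other. These are matches of letters in a short window and say nothing about occupancy of the site or about sites farther away.

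The 6 libraries held between 14377532 and 15602732 estimated counts, and 12959 genes, all 7 family members among them, passed the filter on low counts. Within each group the libraries were farther apart than counting error allows, so none held the same reads as another, which does not tell technical from biological replicates. Epithelial markers were present as the label of the line would have it, with EPCAM at 240 to 264 and CDH1 at 71.6 to 122 CPM (a count set against its library's total after edgeR's TMM scaling). Of the intestinal markers, the transcription factor CDX2 was at 21 to 29.4 CPM, and VIL1 and LGALS4 were at or near 0. The summed level of 8 epithelial markers was 7680 to 8810 CPM with shNC and 6160 to 8050 CPM with PLEK2 shRNA, and 6 of the 8 were above 1 CPM. Of other cell types, squamous markers (2 of 6 above 1 CPM) summed to 23.3 to 40.8 and 13.2 to 32 CPM in the same groups. By the mean over libraries, as for the counts of markers above, COL1A1 was above 1 CPM in the fibroblast list and CD68 in the leukocyte list, and no measured endothelial marker was. The highest values of LYZ and VWF in a library were 1.06 and 1.18 CPM. DCN, LUM and PTPRC were not among the genes measured, by these symbols. The fibroblast list thus had 2 of 4 genes measured and the leukocyte list 3 of 4. The part of these markers in the results below was not tested.

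PLEK2 was measured first, as the check of the knockdown. It had 86, 72.6 and 82.9 CPM in shNC replicates 1 to 3 and 16, 32.2 and 34.9 CPM in PLEK2 shRNA replicates 1 to 3. The share left within a same-numbered pair was 18.6%, 44.3% and 42.2%, so PLEK2 fell furthest in pair 1. On the log2 scale the fold change of PLEK2 was -1.54 ± 0.24 (standard error), and edgeR's quasi-likelihood test gave an adjusted p of 0.684 (Benjamini-Hochberg), whereas DESeq2's Wald test, also without the block, gave 5.09e-07. With the replicate number as a block in the model, which removes differences shared by same-numbered libraries, it was -1.57 (standard error 0.17) and edgeR's adjusted p was 0.00106. Without PLEK2 shRNA replicate 1 and without the block, edgeR's adjusted p was 0.0106 (log2 fold change -1.26).
The shRNA is shown because its guide strand could act on other transcripts. Its target site in PLEK2 is given 5′ to 3′, with the 7-base site for the guide's seed in capitals.
PLEK2 shRNA target: gctggtgtactacAAGCTTGa
The transcript of PLEK2 was the only one searched that held the full target. Of 12439 tested genes, 1310 (10.5%) carried the 7-base site in their 3′ UTR, and 0 of the 7 family members carried it anywhere in their main transcript.

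All 7 genes were strongly expressed in HCT116 cells, and levels are compared between genes only as FPKM, which scales a count to transcript length and library total. YWHAZ was the most abundant, at 705 ± 32.4 FPKM with shNC and 721 ± 32.7 with PLEK2 shRNA (SD, n = 3 here and below). YWHAE followed at 429 ± 19.9 and 423 ± 7.76 FPKM. SFN was the third of the 7, with 422.61, 397.73 and 347.41 FPKM in shNC replicates 1 to 3 and 330.85, 342.18 and 318.82 FPKM in PLEK2 shRNA replicates 1 to 3. By its mean FPKM SFN ranked 173 of 12959 tested genes, above 98.7% of them.
YWHAQ came next, at 225 ± 28.9 FPKM with shNC and 249 ± 29.7 with PLEK2 shRNA, and YWHAB had 130 ± 5.39 and 130 ± 8.34 FPKM. The last in order were YWHAH, at 124 ± 6.1 and 108 ± 4.8 FPKM, and YWHAG, at 89.5 ± 3.44 and 93.7 ± 4.63 FPKM. Even YWHAG, the lowest of the family, lay above 93.5% of tested genes. Each gene was higher than the next in this order in 6 of 6 libraries. Across libraries the ranges of YWHAE and SFN nevertheless met, the lowest YWHAE value being 413.32 and the highest SFN value 422.61 FPKM. The same held for YWHAB, with a lowest value of 121.75 FPKM, and YWHAH, with a highest of 130.32 FPKM. The other 4 neighbouring pairs had separate ranges.

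SFN made up a smaller part of the family's mRNA with PLEK2 shRNA. Its share of the summed FPKM of the 7 genes was 19%, 19.3% and 17.5% in shNC replicates 1 to 3 and 15.6%, 16.7% and 15.9% in PLEK2 shRNA replicates 1 to 3. The group means were 18.6 ± 0.943% and 16.1 ± 0.6%, a difference of -2.5 percentage points. On CPM, which leaves transcript length out, the difference was -1.5 points. YWHAZ held 33.7 ± 0.553% with shNC and 35.1 ± 0.674% with PLEK2 shRNA, and YWHAQ held 10.8 ± 0.759% and 12.1 ± 1.06%. YWHAE held 20.5 ± 0.654% and 20.6 ± 0.756%, YWHAB 6.2 ± 0.212% and 6.34 ± 0.333%, and YWHAG 4.29 ± 0.224% and 4.56 ± 0.259%. The share of YWHAH was lower with PLEK2 shRNA, as that of SFN was, at 5.91 ± 0.207% and 5.25 ± 0.393%. For YWHAH the shNC libraries held 5.74% to 6.14% and the PLEK2 shRNA libraries 4.82% to 5.6%. The sum itself was 2090 ± 123 FPKM with shNC and 2060 ± 63.7 FPKM with PLEK2 shRNA, a gap smaller than the spread between libraries. Shares of 1 sum are not independent of each other, so a lower share of SFN raises the summed share of the rest, though not each of them.

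**Figure D1:**
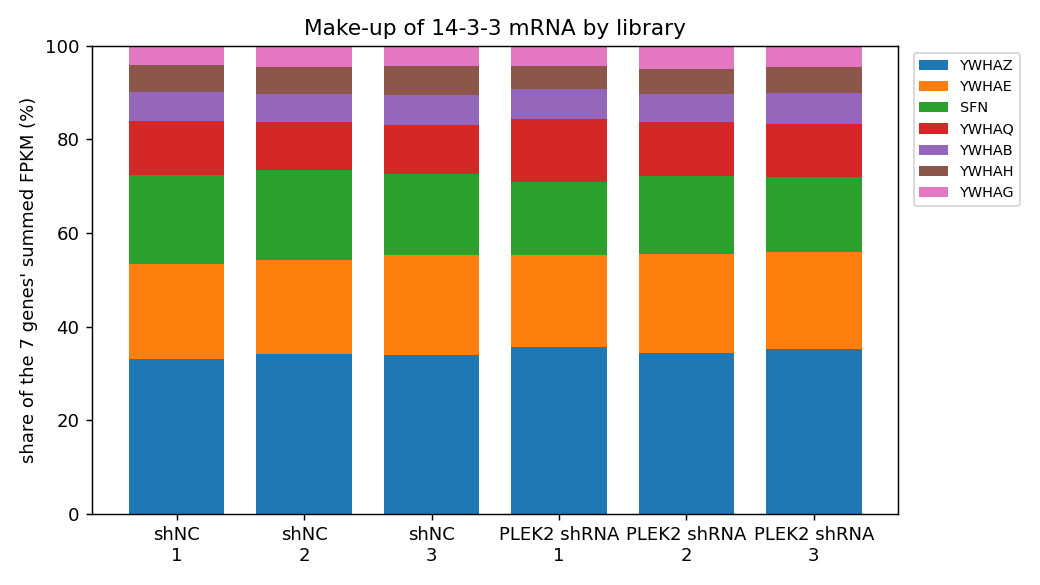
Stacked bars give the share of each 14-3-3 gene in the summed FPKM of the 7 genes (vertical axis, percent) in each of the 6 libraries (horizontal axis). The SFN segment is 17.5% to 19.3% in the shNC libraries and 15.6% to 16.7% in the PLEK2 shRNA libraries, and the YWHAZ segment is the tallest in all 6.

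Between groups, SFN and YWHAH were the family members whose libraries did not overlap, and both were lower with PLEK2 shRNA. SFN had 506, 475 and 412 CPM in shNC replicates 1 to 3 and 380, 403 and 371 CPM in PLEK2 shRNA replicates 1 to 3. Every PLEK2 shRNA library lay below every shNC library, by as little as 9.17 CPM between the nearest ones, and the shNC libraries were the more scattered. The means were 464 ± 47.6 and 385 ± 16.3 CPM, and edgeR's fit with the replicate block put SFN 16.8% lower. The log2 fold change was -0.27, with a standard error of 0.09, or 0.06 with the replicate block. Within same-numbered pairs the log2 ratio of SFN was -0.41, -0.24 and -0.15 for pairs 1, 2 and 3. Pair 1 had the least PLEK2 left (18.6%) and the lowest SFN ratio. Its shNC library was the highest of that group in SFN (506 CPM). Its PLEK2 shRNA library, at 380 CPM, lay between the others of that group (403 and 371 CPM). Pairs 2 and 3 had nearly the same PLEK2 left (44.3% and 42.2%). Whether the SFN ratio followed the PLEK2 left was not tested. Without replicate 1 in either group the log2 fold change of SFN was -0.19 (edgeR with the block). In a bulk sample, fewer cells that make a transcript and less of it per cell cannot be told apart.

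YWHAH, which encodes 14-3-3 eta, had 219, 198 and 203 CPM with shNC and 165, 180 and 183 CPM with PLEK2 shRNA, in replicates 1 to 3. The groups were 15.5 CPM apart at their nearest libraries. The means were 207 ± 10.8 and 176 ± 9.28 CPM, and edgeR's fit with the block put YWHAH 14.8% lower. Its log2 fold change was -0.23 (standard error 0.08, or 0.06 with the block). The pair ratios were -0.40, -0.14 and -0.15 on the log2 scale, so here too the largest step was in pair 1. Without replicate 1 in either group the log2 fold change of YWHAH was -0.14 (edgeR with the block). Both SFN and YWHAH were also below without overlap when counts were scaled by library totals or DESeq2's size factors, and in FPKM.

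YWHAQ, which encodes 14-3-3 theta, was the family member that was higher in all 3 pairs. It had 556, 452 and 439 CPM with shNC and 585, 502 and 475 CPM with PLEK2 shRNA. The groups overlapped, because replicate 1 was high in both. The means were 482 ± 63.8 and 520 ± 57.3 CPM, and the log2 fold change was 0.11 with a standard error of 0.12, or 0.05 with the block. The pair ratios of YWHAQ were 0.07, 0.15 and 0.11 on the log2 scale.

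The other 4 genes had mixed pairs and overlapping groups. YWHAZ had 2180, 2090 and 1970 CPM with shNC and 2160, 2050 and 2020 CPM with PLEK2 shRNA, a log2 fold change of 0.00 (standard error 0.07). YWHAE had 773, 707 and 716 CPM against 691, 728 and 697 CPM. Its log2 fold change was -0.05 (standard error 0.07), and pair 1 alone was clearly below 0, at -0.16 against 0.04 and -0.04. YWHAB had 410, 378 and 380 CPM against 402, 361 and 386 CPM, with a log2 fold change of -0.02 (standard error 0.08). YWHAG had 330, 339 and 311 CPM against 325, 357 and 322 CPM, with a log2 fold change of 0.03 (standard error 0.08).

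**Figure D2:**
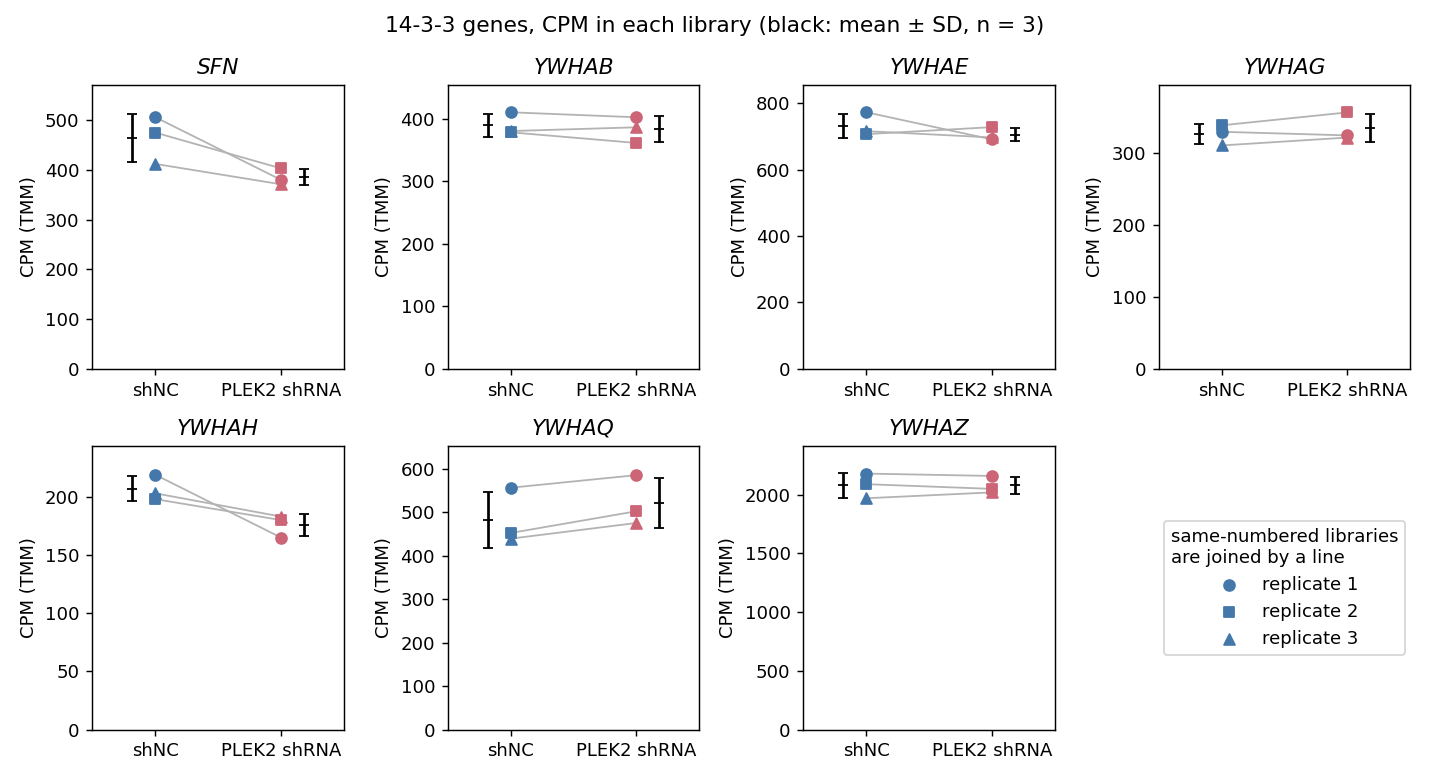
Each panel plots 1 gene's CPM (vertical axis, from 0) in the shNC and PLEK2 shRNA libraries (horizontal axis). Symbols mark the replicate number, lines join same-numbered libraries, and black bars are the mean ± SD of 3 libraries. SFN and YWHAH have all PLEK2 shRNA libraries below all shNC libraries, and in YWHAQ replicate 1 is the highest library of both groups.

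Counted over the family, 2 of 7 genes were below without overlap, against 5.12% of the 12959 tested genes, and 0 of 7 were above, against 4.08%. Lower in all 3 pairs were 2 of 7, against 21.1% of tested genes, and higher in all 3 were 1 of 7, against 19.9%. Because the family was chosen from this contrast, nothing is read from these counts. For genes outside the family, which were tested in this contrast, calls were made at a Benjamini-Hochberg adjusted p of 0.05. Without the block the share of tested genes that edgeR called was 0% (400 genes had an unadjusted p under 0.05, and DESeq2 called 12). With the block it was 0.849%, made up of 0.725% down and 0.123% up.

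**Figure D3:**
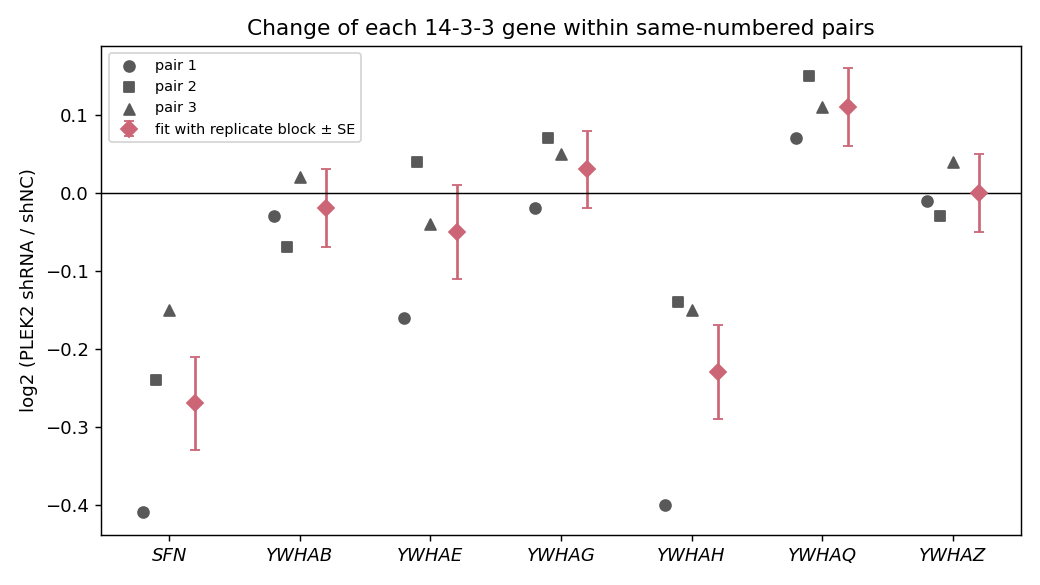
For each 14-3-3 gene (horizontal axis), grey symbols give the log2 ratio of PLEK2 shRNA to shNC (vertical axis) in pairs 1, 2 and 3, and red diamonds the log2 fold change ± standard error from edgeR with the replicate block. SFN and YWHAH lie below 0 in all pairs with their lowest point in pair 1 (-0.41 and -0.40), and YWHAQ lies above 0 in all pairs.

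Depth was not what limited these values. The lowest count of any family member in a library was 2603, for YWHAH, where counting error alone is 1.96% of the value. For SFN, with 5612 to 7758 counts, it was 1.33% at the lowest count. Counting errors cover the sampling of reads only. All 42 family counts were whole numbers, whereas between 84.2% and 85.4% of all counts in a library were, the rest carrying decimals from reads divided among genes. The coding sequences of family members were 62.3% to 78.8% identical in pairs, and SFN was closest to YWHAG, at 70.3%. The longest run of identical bases shared by 2 coding sequences was 39, between YWHAG and YWHAH, and the longest that SFN shared was 27, with YWHAQ, both shorter than the 50-base reads. GENCODE 44 names 9 pseudogenes for YWHAZ, 8 for YWHAQ, 7 for YWHAE and 2 for YWHAB but 0 for SFN, YWHAG and YWHAH. Reads shared with those copies were not examined, so the values of YWHAZ, YWHAQ, YWHAE and YWHAB are less certain than those of SFN.

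The difference between replicate numbers, common to both groups, was tested with edgeR's quasi-likelihood F test. It passed an adjusted p of 0.05 for 1 of the 7 genes, against 28.4% of tested genes. That gene was YWHAQ (adjusted p 0.00468, edgeR), whose replicate 1 lay above the mean of replicates 2 and 3 by 0.32 with shNC and by 0.26 with PLEK2 shRNA on the log2 scale. YWHAQ kept this call in all 11 alternatives run, with adjusted p between 0.000288 and 0.0394 (edgeR, and DESeq2 for the lowest). The term did not pass for SFN (adjusted p 0.149, edgeR). SFN replicate 1 differed from the mean of replicates 2 and 3 by 0.19 with shNC and by -0.03 with PLEK2 shRNA on the log2 scale. Without PLEK2 shRNA replicate 1, however, the term passed for SFN as well (adjusted p 0.00787, edgeR). The adjusted p-values of the other 5 genes lay between 0.237 for YWHAG and 0.956 for YWHAH (edgeR).

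Within the family, the levels of SFN over the 6 libraries ran most closely with those of YWHAH (Pearson r of log2 CPM 0.83) and YWHAE (0.75). YWHAQ ran most closely with YWHAZ (0.85). Across 10160 tested genes whose mean log2 CPM exceeded 3, the 5 with the highest correlation with SFN were VPS16 (0.988), KIF18B (0.988), LRRFIP1 (0.983), ATG14 (0.981) and KPNA1 (0.978). VPS16 is a subunit of the complexes that tether endosomes and lysosomes, KIF18B is a mitotic kinesin, ATG14 directs a lipid kinase to sites of autophagy and KPNA1 is an importin. In shNC replicates 1 to 3 KIF18B had 90.4, 84.8 and 79.9 CPM, and in PLEK2 shRNA replicates 1 to 3 it had 73.4, 77 and 73.5 CPM, the same order of libraries as SFN within the shNC group. These correlations describe 6 libraries that share replicate numbers and a group difference, and with so few libraries many of 10160 genes will run close to any 1 gene.

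The other p53 targets were tested beside SFN. Of 25 other targets tested, from a list of 26 written with earlier results of these libraries known, 21 had a log2 fold change above 0, and the median was 0.17 against -0.002 for all tested genes. SFN had -0.27, the value for which it was chosen, so its place beside them is a description. MDM2, which encodes a ubiquitin ligase, and GTSE1 were named after their values were seen. They were also below 0, at -0.24 ± 0.07 and -0.21 ± 0.08 (standard error; adjusted p 0.101 and 0.209, edgeR with the block), within error of SFN. None passed edgeR's adjusted p of 0.05 without the block, and 2 passed with it, both up. CDKN1A, the cell cycle inhibitor p21, had 214, 126 and 136 CPM with shNC and 299, 158 and 158 CPM with PLEK2 shRNA. It rose in the fit with the block, by 0.35 ± 0.06 (standard error) on the log2 scale and with edgeR's adjusted p at 0.0215. Without PLEK2 shRNA replicate 1 and without the block its log2 fold change was -0.01, and with the block but without replicate 2 in either group the call was lost (adjusted p 0.224, edgeR).
ZMAT3, an RNA-binding protein, had 42.5, 37.7 and 36.6 CPM with shNC and 58.1, 50.1 and 44.3 CPM with PLEK2 shRNA. It was above without overlap, as were 5 of the 25 targets in all (0 below), against 4.08% of tested genes (5.12% below). It rose in the fit with the block by 0.38 (standard error 0.07; adjusted p 0.0215, edgeR), a call that was also lost without replicate 2 (adjusted p 0.242, edgeR).
The next p53 targets by p came from the same edgeR fit with the block. RRM2B, a ribonucleotide reductase subunit, had a log2 fold change of 0.30 (adjusted p 0.0674). The death receptor gene TNFRSF10B had 0.21 (adjusted p 0.0898) and the antiproliferative gene BTG2 0.34 (adjusted p 0.0965). Differences between replicate numbers passed edgeR's adjusted p of 0.05 for 13 of the 25 targets (52%, against 28.4% of tested genes), and SFN was not among such genes.

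**Figure D4:**
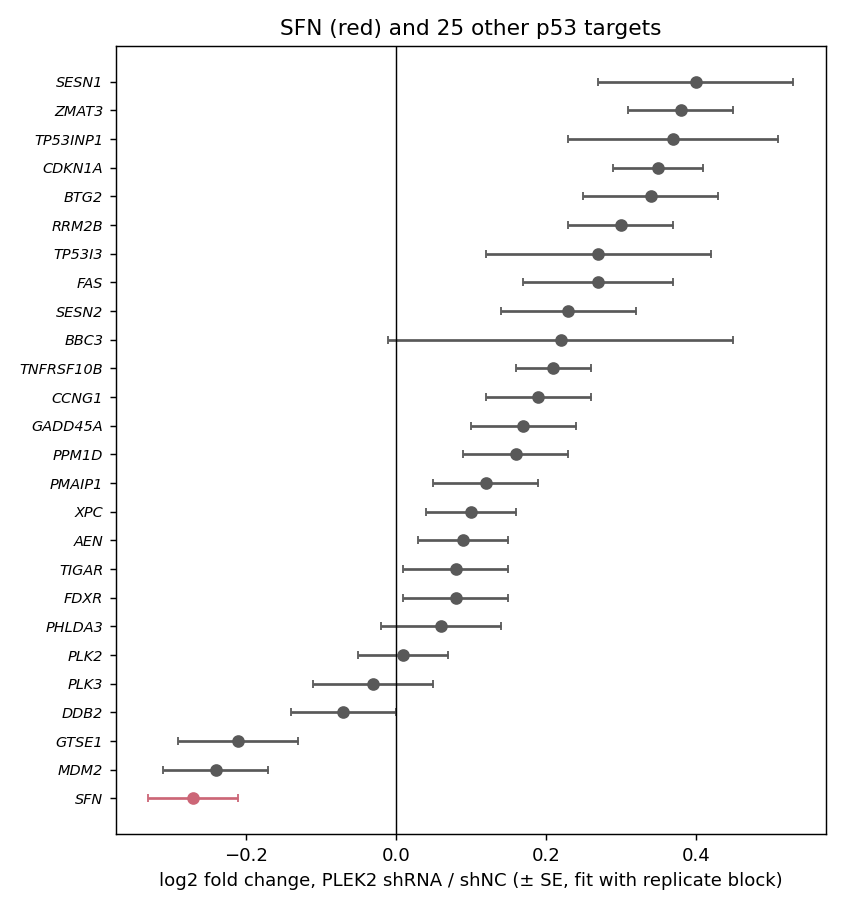
Points give the log2 fold change of PLEK2 shRNA over shNC (horizontal axis) from edgeR with the replicate block, with bars of ± 1 standard error, for SFN (red) and 25 other p53 targets (grey), ordered by value. SFN (-0.27), MDM2 (-0.24) and GTSE1 (-0.21) lie at the lower end, and CDKN1A (0.35) and ZMAT3 (0.38) are the targets that passed an adjusted p of 0.05.

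Genes known to act on SFN were measured next. The transcriptional regulators were TP63, which reached no more than 1.11 CPM in a library, and BRCA1. The others were the ubiquitin ligases TRIM25 and COP1, which drive breakdown of the SFN protein, and the DNA methyltransferases DNMT1, DNMT3A and DNMT3B. None of these 7 passed edgeR's adjusted p of 0.05, with or without the block. DNMT3B had 70.1, 61.4 and 62.4 CPM with shNC and 53.4, 53.7 and 58.4 CPM with PLEK2 shRNA (log2 fold change -0.23; adjusted p 0.114, edgeR with the block). DNMT1 had 446, 448 and 443 CPM against 339, 414 and 431 CPM (-0.18; adjusted p 0.172, same fit). Both methyltransferases were below without overlap (5.12% of tested genes were). For DNMT1 the nearest libraries were at 443 and 431 CPM. Its log2 fold change was -0.08 without PLEK2 shRNA replicate 1 and without the block.
DNMT3A, at 10.3, 10.9 and 9.28 CPM against 12.3, 11.3 and 12.6 CPM, and COP1, at 36.5, 34.4 and 33.4 CPM against 40.6, 36.9 and 37.7 CPM, were above without overlap (4.08% of tested genes were). Their log2 fold changes were 0.25 and 0.14 (adjusted p 0.268 and 0.282, edgeR with the block). BRCA1 overlapped, with a log2 fold change of -0.14 (adjusted p 0.262, edgeR with the block).

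Proteins that 14-3-3 dimers bind were taken in 5 lists by role. None of their genes passed edgeR's adjusted p of 0.05 in either fit. For mitotic entry, the setting in which SFN is best known, 9 of 9 genes were tested and the median log2 fold change was 0.01. CDK1 had a log2 fold change of 0.10 (adjusted p 0.36, edgeR with the block, as for all genes in this and the next paragraphs). Its partner CCNB1 had -0.03 (0.781), the CDK inhibitor CDKN1B 0.16 (0.428), the checkpoint kinase CHEK1 -0.07 (0.633) and CDK2 0.06 (0.666). All 5 had overlapping groups.
For cell death and survival, 10 of 10 were tested with a median of 0.02, and the leading members went both ways. The death agonist BAD, which 14-3-3 holds back, had 28.2, 30.6 and 30.1 CPM with shNC and 27, 26.5 and 26.7 CPM with PLEK2 shRNA. BAX had 39.4, 40 and 40.8 CPM against 44.7, 44.3 and 42.4 CPM. Neither gene's groups overlapped, with BAD below and BAX above, at log2 fold changes of -0.15 (adjusted p 0.31) and 0.13 (0.315). TSC2, an mTORC1 inhibitor, was below without overlap (-0.18; 0.149), FOXO4 was above (0.21; 0.386) and AKT1S1 overlapped (-0.17; 0.152). In this list 2 of 10 genes were below without overlap and 2 of 10 above, against 5.12% and 4.08% of tested genes.

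Among RAF clients, BRAF had a log2 fold change of 0.22 (adjusted p 0.111), the scaffold KSR1 -0.08 (0.627) and ARAF -0.05 (0.669). The 11 transcription clients had a median of -0.06, and 2 were above 0. Among them WWTR1, or TAZ, had a log2 fold change of 0.19 (0.116), and the CREB coactivators CRTC1 and CRTC2 had -0.17 (0.182) and -0.12 (0.305). MLXIP had -0.10 (0.331) and the histone deacetylase HDAC4 -0.16 (0.34).
The 17 cytoskeleton and trafficking clients had a median of -0.02. The lowest p-values of any client list were here: the polarity kinase MARK2 had -0.24 (0.083), keratin KRT18 -0.24 (0.0841) and the kinesin KIF1C -0.21 (0.0982). The deubiquitinase USP8 had 0.18 (0.152) and the cofilin phosphatase SSH1 -0.14 (0.249). KRT18 is also on the epithelial marker list, whose sum reached lower values with PLEK2 shRNA.

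Of 17 kinases that make 14-3-3 binding sites 15 were tested. Their median log2 fold change was -0.04, and none was called in either edgeR fit. AKT2 had a log2 fold change of -0.18 (adjusted p 0.104), PIM1 -0.24 (0.152) and the ribosomal S6 kinase RPS6KA1 -0.17 (0.195). PRKAA1, a catalytic subunit of AMPK, had 0.17 (0.191) and PRKD3 0.18 (0.254). Over all 8 lists, 99 of 102 genes outside the family were tested. Without the block edgeR, DESeq2 and limma each called 0 of them, and 3 had an unadjusted p under 0.05 in edgeR's test. With the block 34 had one, and CDKN1A and ZMAT3 were the 2 that passed after adjustment.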

How the data were processed

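Polyadenylated RNA from 6 libraries of HCT116 cells was sequenced as single-end reads of 50 bases. The authors deposited estimated counts per gene, not normalized, and FPKM values, a count scaled to transcript length and library total. The FPKM columns carry no unit in their header, and their unit was taken from their ratio to the counts. The submitters' processing notes name HISAT2 2.0.4, Bowtie2 2.2.5, RSEM 1.2.12 and DESeq2 1.4.5. They also name the build GRCm38.p6, a mouse build, although the rows are human genes. The strand setting and annotation behind the counts are not given in the sources used here. The group means deposited beside the libraries were not used.

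Counts were rounded to whole numbers. Genes were filtered with filterByExpr defaults, which kept 12959 of 17047, scaled by TMM and compared with the quasi-likelihood test of edgeR 4.0.16 under R 4.3.3, with Benjamini-Hochberg adjustment over all genes tested. Alternatives used DESeq2 1.42.0, and limma 3.58.1 on log2(FPKM + 1) and log2(FPKM + 0.1), other scalings and filters, and left-out libraries. The smallest two-sided p of an exact permutation test of 3 against 3 is 0.1, so none was run. The scripts were tested on simulated data.

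Deviations from the group mean were shared between same-numbered libraries, with correlations of 0.736, 0.558 and 0.554 over 10161 genes, against -0.629 to 0.358 for different numbers. Centring within so few libraries lowers the correlations between different numbers. Replicates 2 and 3 were also alike across groups (0.355 and 0.358), so the pairing is clearest for replicate 1. The numbers were treated as pairs by these values and not by a shared day or batch in the labels. Values from a model that adds the replicate number as a block are therefore given beside the unblocked ones.

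The members and the gene lists were chosen with earlier results of these data known. Named were all 7 members, PLEK2, in each list the up to 5 genes with the smallest p in the blocked fit and any called gene, and the 5 genes most correlated with SFN. Some listed genes are not reported here. Upstream sequences came from RefSeq on GRCh38.p14 and transcripts, the canonical one per gene, from GENCODE 44 on GRCh38.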

Additional observations from a re-analysis of the deposited data

How the results depend on the processing

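The log2 fold change of SFN lay between -0.34 and -0.19 in every alternative run, lowest without shNC replicate 3 and nearest 0 when replicate 1 was left out of shNC or of both groups. With the replicate block and without replicate 1, those of YWHAH and YWHAE were -0.14 and 0.01. The lower share of SFN in the family was -1.5 points on CPM and between -3.04 and -2.16 points without each library in turn. The replicate number term passed for 1 member, or 2 without PLEK2 shRNA replicate 1. Over all genes it passed for 3684, for 1765 with DESeq2's likelihood ratio test and for 1905 to 3858 without each library, the lowest counts being without PLEK2 shRNA replicate 2 (1905) and shNC replicate 2 (1966).

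The comparison of the groups called 0 of all tested genes, 12 with DESeq2's Wald test, 110 with the replicate block and 192 with the block and library totals. It called 0 to 1 without each library, PLEK2 being the 1. With the block it called 528, 18 and 297 without replicate 1, 2 and 3 in turn. Of the listed genes it called 0, then 2 with the block, 4 with the block and library totals, and between 0 and 6 with the block and a replicate number left out. Among the genes named, the replicate block by itself changed the call of PLEK2, CDKN1A and ZMAT3 and of no other. With the block and library totals, RRM2B (adjusted p 0.0439) and TNFRSF10B (0.0493) also passed, and with the block and without replicate 3, RRM2B (0.0244), BTG2 (0.00183), GTSE1 (0.0235) and DNMT3B (0.0494) did (all edgeR). The causes were not tested.

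Some directions turned when libraries were left out one at a time, or in same-numbered pairs with the block. The log2 fold change then ranged from -0.05 to 0.25 for CDK1, -0.01 to 0.28 for CDKN1B, -0.01 to 0.66 for CDKN1A, -0.09 to 0.63 for RRM2B, -0.03 to 0.32 for PRKAA1, -0.35 to 0.05 for CRTC1 and -0.16 to 0.03 for KSR1. All 7 turned without PLEK2 shRNA replicate 1, and in no other leave-out. It ranged from -0.15 to 0.14 for CCNB1 and -0.17 to 0.04 for CHEK1, both turning without shNC replicate 1 and, with the block, without replicate 1 (to 0.02 and 0.04; CCNB1 also without PLEK2 shRNA replicate 2 or 3). It ranged from -0.01 to 0.36 for PRKD3, which turned without shNC replicate 3.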
